A study of Homo sapiens with 11 samples.

Results

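Glycolysis splits glucose into pyruvate, and a handful of its steps are held by isozymes encoded by separate genes. Pyruvate can be reduced to lactate by lactate dehydrogenase and exported by monocarboxylate transporters, or it can enter mitochondria through the pyruvate carrier and be oxidised by the pyruvate dehydrogenase complex, which kinases switch off and phosphatases switch on. Clear cell renal cell carcinoma (ccRCC) is known for high expression of the hypoxia-driven part of this pathway and for loss of the gluconeogenic enzyme FBP1. The genes described here are the 37 genes that run from glucose uptake to lactate export and the pyruvate dehydrogenase switch, picked by symbol, of 26485 rows in each of the count tables. Every one of the 37 symbols was found in both tables.

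The libraries came from Caki-1-SR clone 1, a single clone of the human ccRCC line Caki-1 (from a skin metastasis) made resistant to sunitinib and kept in 1 µM of it, so that every group carries that background. ODC cells received the optimised combination ODC_REMP, made of 2 µM Rapta-C (a ruthenium-arene compound), 1 µM erlotinib (an EGFR kinase inhibitor), 1 µM metformin (a biguanide) and 5 µM parthenolide (a sesquiterpene lactone), and CTRL cells received none of these. At 24 h there were 3 CTRL libraries (numbered 1, 3 and 5) and 3 ODC libraries (2, 4 and 6), and at 2 h there were 2 CTRL libraries (1 and 2) and 3 ODC libraries (3, 4 and 5), each time point with its own controls. The libraries of each time point carry a different month in their names, so time and that month cannot be told apart, and the sources used here do not say whether libraries of a group came from separate cultures, so p-values measure the spread between libraries, which may be technical.

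Libraries held 17785229 to 20882856 counts at 24 h and 25782895 to 31118349 at 2 h. PAX8, a transcription factor of renal epithelium, stood at 437 to 891 CPM (the count scaled to library size) over the 11 libraries and the filament gene VIM was also high, whereas PAX2 and the proximal tubule receptor LRP2 were at or near 0. The summed endothelial markers did not exceed 1.28 CPM and the leukocyte markers 3.25 CPM. Fibroblast markers summed to 327 CPM in CTRL library 1 at 2 h against 137 CPM in CTRL library 2, so results at 2 h are given with and without library 1 where they rest on it. At 24 h the fibroblast sum was 66.6 to 142 CPM in CTRL and 115 to 169 CPM in ODC. Only 2 of the 7 fibroblast markers, COL1A1 and PDGFRB, had more than 3 counts in every library. The other listed markers fell to 0 in some library, so the sum is no measure of fibroblast content. The summed mesenchymal genes VIM and CDH2 lay at 3343 to 3734 CPM in CTRL and lower, at 2608 to 3153 CPM, in ODC. The part of these sums in the members' values was not tested.

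Members were expressed over a wide range, and together they took 2.19% ± 0.148 (SD, n = 3) of the counts in CTRL and 2.32% ± 0.0915 (SD, n = 3) in ODC at 24 h, with overlapping libraries. Measured per kb of transcript, the level in CTRL cells at 24 h was highest for GAPDH (3240 CPM per kb), followed by PKM (1747), ENO1 (1405), LDHA (1403), LDHB (1022), TPI1 (730) and ALDOA (587). ENO1 and LDHA, neighbours in that order, did not differ beyond their spread (SD 110 and 109, n = 3). The middle of the order held the glucose transporter SLC2A1 (171 CPM per kb), the lactate exporter SLC16A3 (176) and PFKP (129), and the pyruvate dehydrogenase kinases PDK1, PDK3 and PDK4 stood near the bottom at 0.609, 0.545 and 0.244 CPM per kb. The place of PDK1 depends on the 14072 bases taken for its transcript. In CPM it averaged 8.56 in these cells, beside 0.949 for PDK3, 0.879 for PDK4 and 7.44 for ENO2. FBP1, the gluconeogenic fructose bisphosphatase, had 0 counts in all 6 libraries at 24 h and at most 3 counts in a library at 2 h, and the neuronal-type glucose transporter SLC2A3 lay between 0.108 and 0.967 CPM. The floor of 3 counts was worth 0.144 to 0.166 CPM at 24 h. FBP1 was therefore not detectable at this depth, and neither gene was tested at 24 h.

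**Figure D1:**
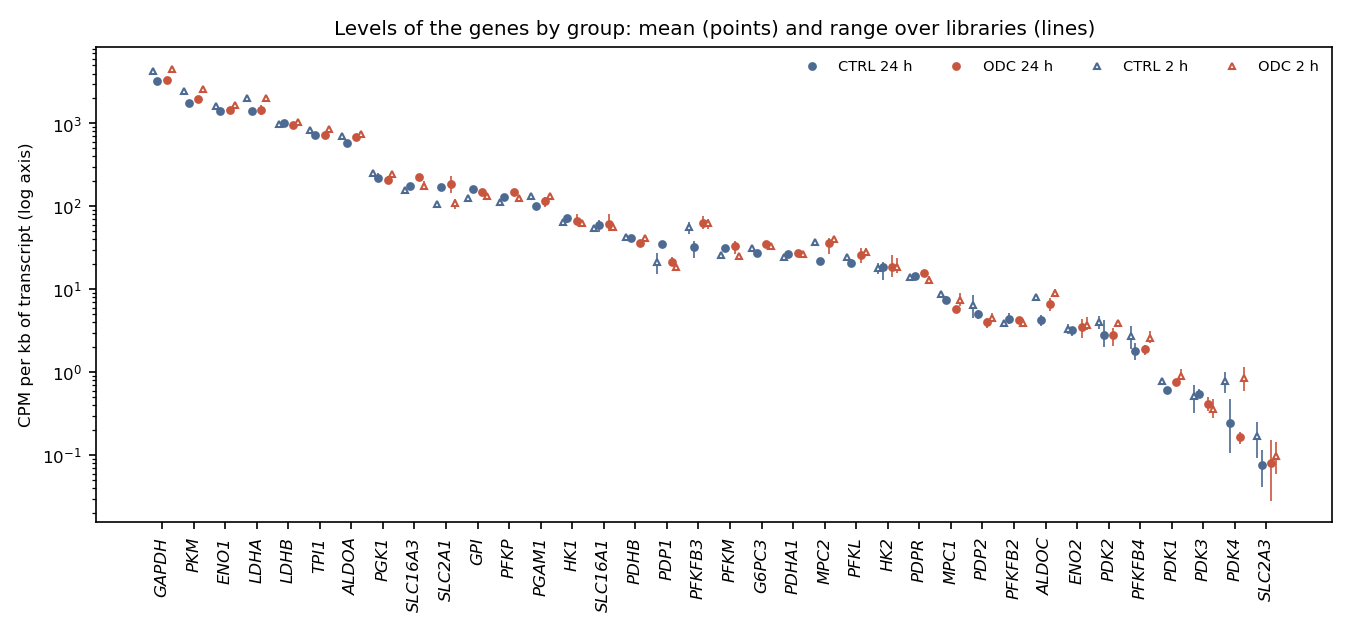
Level of each gene in CPM per kb of transcript (log axis), ordered by its mean in CTRL cells at 24 h, with filled circles for 24 h, open triangles for 2 h, blue for CTRL, red for ODC, and lines for the range over libraries. GAPDH leads at 3240 CPM per kb, PDK1, PDK3, PDK4 and SLC2A3 close the order, and FBP1, with 0 counts at 24 h, is left out.

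The promoters of 3 genes are shown because these genes had the 3 smallest p-values among the members with higher values in ODC cells at 24 h: PFKFB3, whose enzyme makes fructose-2,6-bisphosphate, MPC2, a subunit of the mitochondrial pyruvate carrier, and G6PC3, the ubiquitous glucose-6-phosphatase subunit. Each is the 250 bases before the RefSeq start of the gene (GRCh38.p14), 5′ to 3′ on the gene's own strand, at chr10:6144671-6144920 (+) for PFKFB3, chr1:167935997-167936246 (−) for MPC2 and chr17:44070423-44070672 (+) for G6PC3. Capitals mark the core of the hypoxia response element (ACGTG or GCGTG, read on both strands) or the E-box CACGTG, which contains that core.
PFKFB3: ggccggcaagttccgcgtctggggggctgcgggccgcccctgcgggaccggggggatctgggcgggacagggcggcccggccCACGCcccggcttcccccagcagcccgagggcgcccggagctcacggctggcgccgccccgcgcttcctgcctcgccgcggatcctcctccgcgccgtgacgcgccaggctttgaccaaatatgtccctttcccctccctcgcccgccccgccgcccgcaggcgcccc
MPC2: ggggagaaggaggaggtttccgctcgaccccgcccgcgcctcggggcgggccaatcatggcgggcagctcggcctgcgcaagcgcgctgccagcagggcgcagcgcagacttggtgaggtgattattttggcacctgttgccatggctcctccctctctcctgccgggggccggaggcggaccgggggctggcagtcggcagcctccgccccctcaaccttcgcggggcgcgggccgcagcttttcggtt
G6PC3: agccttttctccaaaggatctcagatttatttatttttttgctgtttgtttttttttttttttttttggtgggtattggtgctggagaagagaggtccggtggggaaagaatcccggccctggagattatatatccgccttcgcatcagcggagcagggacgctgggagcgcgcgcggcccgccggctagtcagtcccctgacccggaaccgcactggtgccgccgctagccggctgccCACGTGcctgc
PFKFB3 held 1 core on the reverse strand 168 to 164 bases before its start, G6PC3 held an E-box 11 to 6 bases before its start, and MPC2 held neither. RefSeq windows were found for 33 of the 37 genes, of which 19 (57.6%) held the hypoxia core, against 43.2% of all 35116 promoters. The E-box was found in 6 of the 33 (18.2%) against 6.34% of all promoters, and the antioxidant response element TGACNNNGC in 5 (15.2%) against 10.9%. ALDOC, an aldolase isozyme, and LDHA held 5 core matches each, counting both strands, and PDHB held 6. A letter match is a description of the window only.

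At 24 h, no member passed an adjusted p of 0.05 in the edgeR quasi-likelihood test (Benjamini-Hochberg adjusted) over all 12689 genes, of which 24 (0.189%) passed. At an unadjusted p under 0.05 there were 8 members, and the likelihood ratio test of edgeR and DESeq2 each gave adjusted p-values under 0.05 for the same 3 members, PDP1, PFKFB3 and MPC2, where these tests called 3.16% and 2.98% of all genes. Of the 35 members tested, 23 had a fold change above 1 and 12 below, with a median log2 fold change of 0.064 beside 8.9e-04 over all genes tested. The 8 members were PFKFB3, ALDOC, ALDOA, SLC16A3, PDK1, G6PC3 and MPC2, which had higher values in ODC cells, and PDP1, which had lower values. These are 7 of 35 in the higher direction (20%) beside 7.20% of all genes, and 1 of 35 in the lower direction (2.86%) beside 5.04%. ODC libraries lay entirely above the CTRL libraries for 7 of the 35 members (20%, beside 9.42% of all genes), and these were the same 7. Their p-values and this separation come from the same libraries, so the separation is no further evidence. ODC lay entirely below CTRL for 4 members, PDP1, PDHB, GPI and MPC1 (11.4%, beside 8.51% of all genes). No member reached a fold change of 2 with an unadjusted p under 0.05, which 298 of all 12689 genes did.

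**Figure D2:**
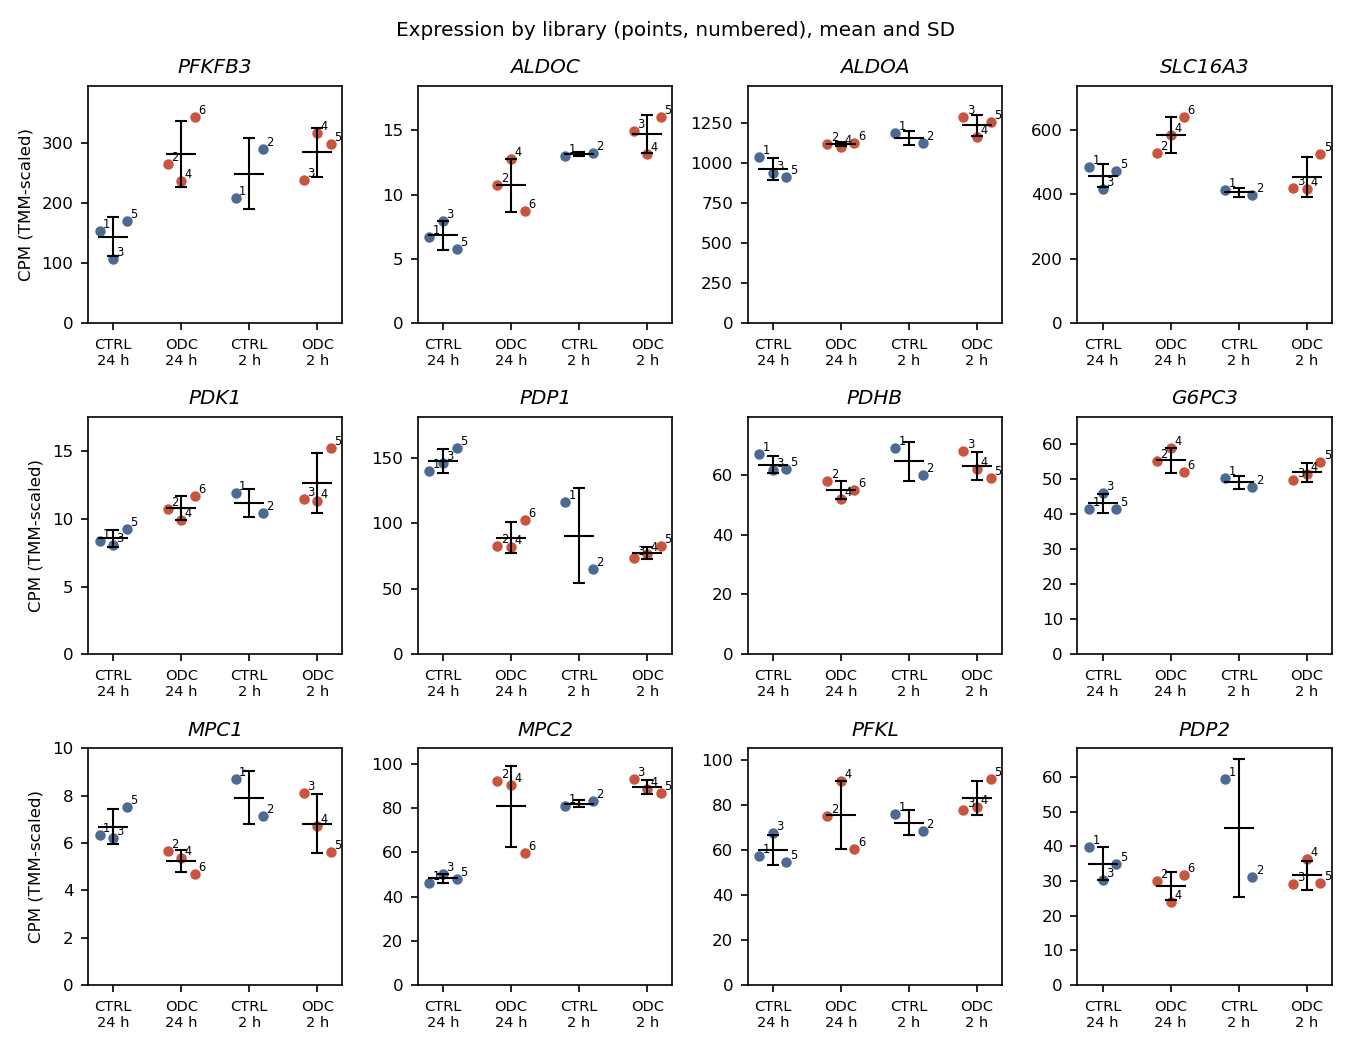
TMM-scaled CPM of 12 members in each of the 11 libraries (points, numbered by library, blue for CTRL and red for ODC), with the mean and SD per group. At 24 h PFKFB3, ALDOC, ALDOA, SLC16A3, PDK1, G6PC3 and MPC2 lie higher in all 3 ODC libraries than in any CTRL library and PDP1, PDHB and MPC1 lie lower, while PFKL and PDP2 overlap.

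SLC2A1, HK1 and HK2 differed between groups by less than the spread between libraries. SLC2A1, the main glucose transporter of these cells, was at 619, 534 and 578 CPM in CTRL libraries 1, 3 and 5 and at 624, 485 and 777 CPM in ODC libraries 2, 4 and 6. ODC libraries 4 and 6 thus lay below and above every control. Its log2 fold change was 0.12 ± 0.16 (SE), with a 95% interval from −0.26 to 0.50. The hexokinases, which trap glucose as glucose-6-phosphate, had log2 fold changes of −0.09 (HK1) and 0.03 (HK2). HK2, the hypoxia-inducible isozyme, varied between 73.3 and 119 CPM within CTRL cells alone, and it made up 20.2% ± 2.64 of the summed HK1 and HK2 level per kb in CTRL and 21.5% ± 2.55 in ODC (SD, n = 3 each). A further hexokinase family gene outside the 37, HKDC1, named after its values were seen, was at 141 ± 44.9 CPM in CTRL and 242 ± 64.1 CPM in ODC (SD, n = 3), without overlap (log2 fold change 0.78 ± 0.25, adjusted p = 0.265 by edgeR's quasi-likelihood test).

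Phosphofructokinase is the committed step, and its activator fructose-2,6-bisphosphate is made and broken down by the PFKFB enzymes. PFKFB3, whose product has a strong bias to synthesis, stood at 154, 108 and 171 CPM in CTRL libraries and at 265, 238 and 344 CPM in ODC libraries (means 144 ± 32.8 and 282 ± 55.3, SD, n = 3). The lowest ODC library lay above the highest control. The log2 fold change was 0.97 ± 0.20 (SE), with an adjusted p of 0.114 in the edgeR quasi-likelihood test after Benjamini-Hochberg adjustment. The gene lies at chr10:6144934-6254644 (+) in GENCODE 44. Its relatives PFKFB2 and PFKFB4 had log2 fold changes of −0.02 and 0.10 with overlapping libraries. Among the phosphofructokinases, the liver-type PFKL stood at 57.4, 67.6 and 54.9 CPM in CTRL and at 75.3, 90.9 and 60.6 CPM in ODC, where library 6 fell among the controls. Its log2 fold change of 0.33 ± 0.16 had an adjusted p of 0.454 by the same edgeR test, and it was 0.17 without ODC library 4. The platelet-type PFKP (0.22) and the muscle-type PFKM (0.09) overlapped between groups, and PFKP kept 71.3% ± 1.96 of the family's level per kb in CTRL and 71.6% ± 2.44 in ODC (SD, n = 3). GPI, which interconverts the hexose phosphates, was lower in every ODC library (612 to 629 CPM) than in any CTRL library (647 to 689 CPM), by a log2 fold change of only −0.09 ± 0.08.

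The aldolases cleave fructose-1,6-bisphosphate, and both measured isozymes had higher values in ODC cells. ALDOC, a minor isozyme here, was at 6.73, 7.98 and 5.75 CPM in CTRL and at 10.7, 12.8 and 8.70 CPM in ODC. ODC library 6 was the lowest of the treated libraries and still above the controls. The log2 fold change was 0.65 ± 0.20, with an adjusted p of 0.246 by edgeR's quasi-likelihood test. ALDOA, the abundant isozyme, was at 1040, 937 and 911 CPM in CTRL and at 1120, 1102 and 1126 CPM in ODC, a narrow gap with a log2 fold change of 0.21 ± 0.09 and an adjusted p of 0.401. ALDOC made up 0.719% of the summed aldolase level in CTRL and 0.974% in ODC. TPI1, which interconverts the triose phosphates, had a log2 fold change of 0.00 with a 95% interval from −0.26 to 0.27.

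The steps from GAPDH to the pyruvate kinase PKM showed small differences. GAPDH, PGK1, PGAM1, ENO1, ENO2 and PKM had log2 fold changes between −0.07 and 0.21, none with an unadjusted p under 0.05 and all with overlapping libraries. The 95% intervals of GPI, TPI1, GAPDH, ENO1, LDHB and the pyruvate dehydrogenase subunit PDHA1 lay inside a 1.25-fold change in either direction, and those of 19 of the 35 members inside 1.5-fold. GAPDH was at 4506, 4066 and 3919 CPM in CTRL and at 4378, 4497 and 4155 CPM in ODC, so the groups overlapped throughout. Reads of several of these genes can be shared with processed pseudogenes, of which GENCODE 44 names 65 after GAPDH, 13 after PGAM1, 6 after LDHA and 5 after PKM, so their counts carry an uncertainty that these values do not show.

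**Figure D3:**
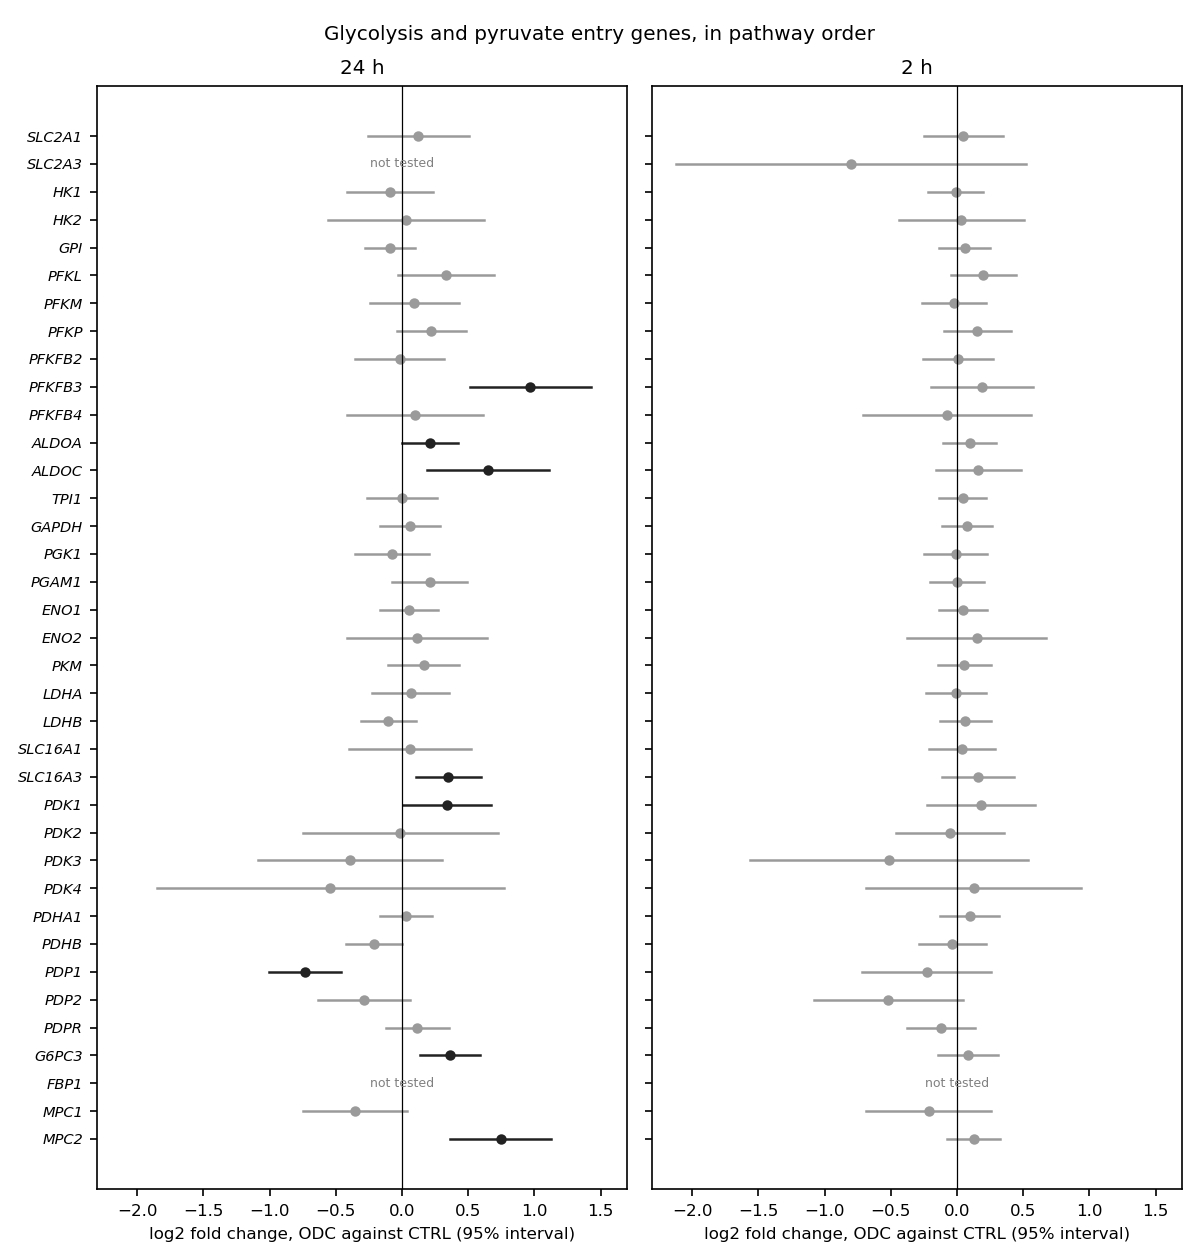
Log2 fold change of ODC against CTRL (points) with 95% intervals (lines) for each gene in pathway order at 24 h and at 2 h, black where the unadjusted p is under 0.05 and grey elsewhere. At 24 h 8 intervals leave 0, 7 of them on the higher side and PDP1 on the lower side, and at 2 h none does.

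At the lactate branch, the exporter SLC16A3 (MCT4) had higher values in ODC cells, while the dehydrogenases overlapped between groups. SLC16A3 was at 483, 417 and 473 CPM in CTRL and at 528, 584 and 640 CPM in ODC. All ODC libraries lay above all controls, with a log2 fold change of 0.35 ± 0.11 and an adjusted p of 0.247 by edgeR's quasi-likelihood test. The other lactate transporter, SLC16A1 (MCT1), ranged from 184 to 261 CPM in CTRL and from 188 to 304 CPM in ODC (log2 fold change 0.06 ± 0.20). LDHA and LDHB, whose subunits mix in the lactate dehydrogenase tetramer, had log2 fold changes of 0.07 and −0.10. LDHA made up 57.8% ± 1.10 of the summed LDHA and LDHB level per kb in CTRL and 60.5% ± 2.36 in ODC, with an exact permutation p of 0.2 (two-sided, n = 3 each), where 0.1 is the smallest p possible.

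The pyruvate carrier subunits, which work as a heterodimer, had values in opposite directions. MPC2 was at 46.2, 50.4 and 48.0 CPM in CTRL libraries 1, 3 and 5 and at 92.1, 90.5 and 59.8 CPM in ODC libraries 2, 4 and 6. All ODC libraries lay above the controls, but library 6 stood well below the other ODC libraries. The log2 fold change was 0.75 ± 0.17, with an adjusted p of 0.131 by edgeR's quasi-likelihood test. With 1 library left out at a time it ran from 0.64 to 0.92. Only the omission of ODC library 6, which gave the 0.92, brought the adjusted p under 0.05 (0.0164 by the same test). MPC2 lies at chr1:167916675-167937072 (−). MPC1 was at 6.34, 6.21 and 7.52 CPM in CTRL and at 5.66, 5.35 and 4.71 CPM in ODC, without overlap and with a log2 fold change of −0.35 ± 0.17 (adjusted p = 0.460 by the same edgeR test).

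The switch on pyruvate dehydrogenase held the member with the smallest p at 24 h. PDP1, the phosphatase subunit that reactivates the complex, was at 140, 146 and 158 CPM in CTRL and at 82.4, 81.6 and 102 CPM in ODC (means 148 ± 9.11 and 88.8 ± 11.8, SD, n = 3). The groups were separated by a wide gap. The log2 fold change was −0.73 ± 0.12 (SE), a fold of 0.601, with an adjusted p of 0.0712 by the edgeR quasi-likelihood test after Benjamini-Hochberg adjustment. The second phosphatase, PDP2, was at 39.7, 30.4 and 34.8 CPM in CTRL and at 30.1, 24.0 and 31.8 CPM in ODC, with overlap and a log2 fold change of −0.29 ± 0.15. The regulatory subunit PDPR, which has duplicated copies elsewhere in the genome, had a log2 fold change of 0.11.

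The kinases that oppose these phosphatases were low and noisy. PDK1, which phosphorylates the E1 subunit and is hypoxia-inducible, was at 8.36, 8.04 and 9.29 CPM in CTRL and at 10.8, 9.94 and 11.7 CPM in ODC. These ranges did not overlap, and the log2 fold change was 0.34 ± 0.14 with an adjusted p of 0.402 by edgeR's quasi-likelihood test. PDK2 ranged from 6.75 to 14.6 CPM within CTRL, and PDK3 and PDK4 lay at or below 1.72 CPM in every 24 h library, so that their log2 fold changes of −0.40 and −0.54 came with intervals that reached beyond a 2-fold change. Of the E1 subunits, PDHA1 had a log2 fold change of 0.03. PDHB was at 66.8, 61.7 and 61.8 CPM in CTRL and at 57.9, 51.9 and 54.8 CPM in ODC, lower in every ODC library by a log2 fold change of −0.21 ± 0.09 (adjusted p = 0.416 by the same edgeR test).

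G6PC3, which hydrolyses glucose-6-phosphate in the endoplasmic reticulum, was at 41.4, 46.0 and 41.4 CPM in CTRL and at 54.9, 58.8 and 51.9 CPM in ODC. The ODC libraries lay above all controls with little spread in either group. The log2 fold change was 0.36 ± 0.10, with an adjusted p of 0.197 by edgeR's quasi-likelihood test, and the gene lies at chr17:44070620-44082151 (+).

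The labels pair no libraries, but library numbers alternate between CTRL and ODC at 24 h, and the deviations of adjacent libraries from their group means correlated at 0.27, 0.63 and 0.49. With adjacent numbers as a replicate block, 5 of the 35 members had an adjusted p under 0.05 in edgeR's quasi-likelihood test, as did 5.41% of all genes: PFKFB3 (0.00544), PDP1 (0.00761), MPC2 (0.0304), ALDOC (0.0353) and G6PC3 (0.0377).

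**Figure D4:**
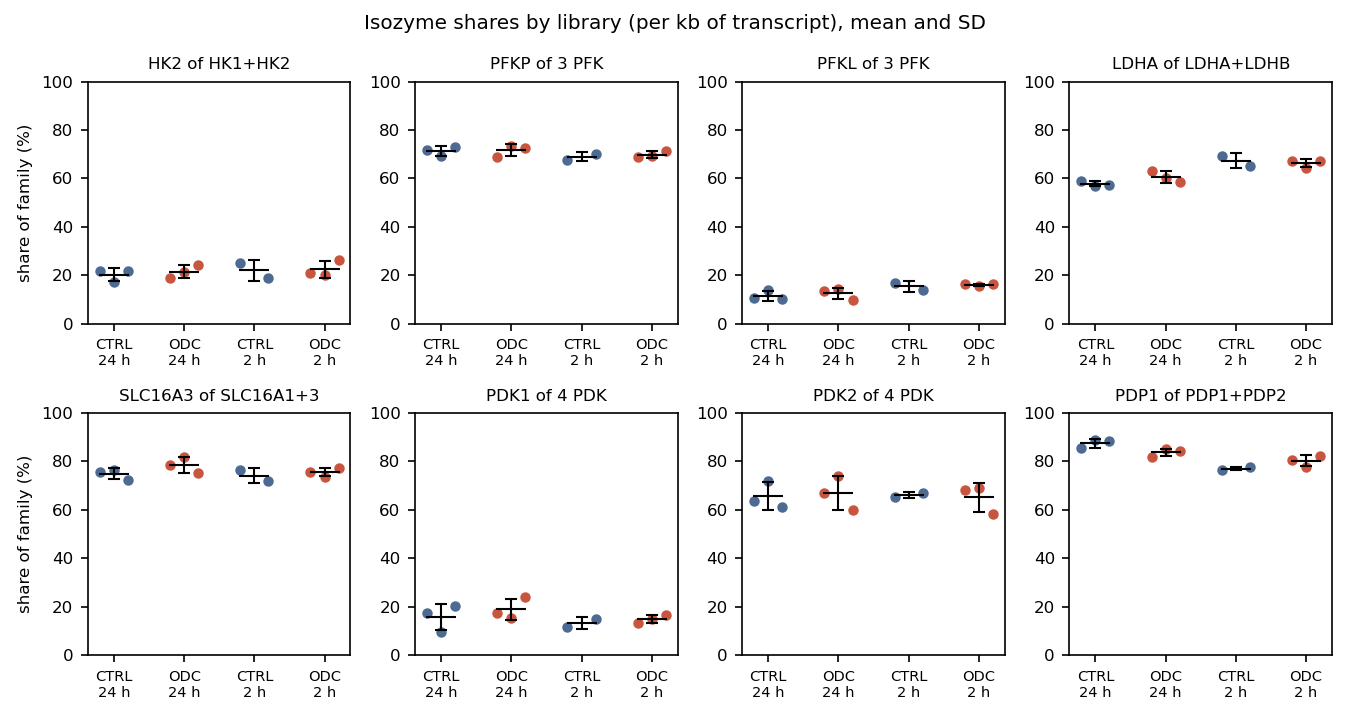
Share of one isozyme in its family's summed level per kb of transcript, in percent, for each library (points, blue for CTRL and red for ODC) with the mean and SD per group. The shares of HK2, PFKP, PFKL, LDHA, SLC16A3, PDK1 and PDK2 overlap between CTRL and ODC at both times, whereas the PDP1 share is lower in ODC at 24 h (83.7% against 87.5%) and higher at 2 h (80.3% against 77.0%).

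Isozyme composition was measured as 14 shares at each time point, and no exact permutation test of ODC against CTRL gave an adjusted p under 0.05, which 3 against 3 libraries cannot reach. PDP1 was the only one of the 14 whose share at 24 h did not overlap between groups, at 87.5% ± 1.86 of PDP1 and PDP2 in CTRL and 83.7% ± 1.56 in ODC (SD, n = 3, exact permutation p = 0.1, two-sided). In the phosphofructokinase family the muscle-type PFKM held 17.3% ± 0.626 in CTRL and 16.0% ± 3.22 in ODC at 24 h, and 15.8% ± 0.366 (n = 2) and 14.2% ± 1.72 (n = 3) at 2 h, where the groups did not overlap and the smallest p possible is 0.2. Among the kinases PDK2 held 65.6% ± 5.72 in CTRL and 67.0% ± 7.01 in ODC, a share that depends on the transcript length taken for PDK1 (14072 bases).

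At 2 h, no member passed at an adjusted or an unadjusted p under 0.05 in edgeR's quasi-likelihood test, and DESeq2 and edgeR's likelihood ratio test also gave 0 members with an adjusted p under 0.05 (beside 0.00750% and 0.0375% of all genes). Of all 13332 genes, 0.00% passed the adjusted threshold, 1.47% had an unadjusted p under 0.05 on the higher side and 0.870% on the lower side. The 36 members tested had a median log2 fold change of 0.044, beside −0.006 over all genes tested, and 33 of them were within 0.25 of 0 on the log2 scale. ODC lay entirely above CTRL for PFKL, TPI1, ENO1, SLC16A3 and MPC2 (13.9%, beside 7.89% of all genes) and below it for none (beside 7.42% of all genes). The 95% intervals of 27 of the 36 lay inside a 1.5-fold change.

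PFKL was at 76.3 and 68.4 CPM in CTRL libraries 1 and 2 and at 78.1, 79.4 and 91.8 CPM in ODC libraries 3, 4 and 5, with a log2 fold change of 0.20 ± 0.11. MPC2 was at 80.8 and 83.2 CPM in CTRL and at 93.2, 88.8 and 86.8 CPM in ODC (0.13 ± 0.09). SLC16A3 was at 415 and 397 CPM in CTRL and at 419, 417 and 524 CPM in ODC (0.16 ± 0.12). In each of these genes the lowest ODC library lay just above the highest control. Without ODC library 5, which was the highest for PFKL and SLC16A3, their log2 fold changes were 0.12 and 0.05. PFKP, at 276 and 314 CPM in CTRL and at 298, 324 and 363 CPM in ODC, overlapped, with a log2 fold change of 0.15 ± 0.11 that was 0.06 without CTRL library 1.

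PDP2 had the smallest p of the members at 2 h, and its value rested on 1 library. It was at 59.4 and 31.2 CPM in CTRL libraries 1 and 2 and at 29.1, 36.4 and 29.5 CPM in ODC. CTRL library 1, in which fibroblast markers were also highest, stood alone. The log2 fold change was −0.52 ± 0.24, and 0.02 without that library. SLC2A3, at 0.967 and 0.353 CPM in CTRL and at 0.349, 0.227 and 0.553 CPM in ODC, behaved likewise, with −0.80 ± 0.57 and 0.08. It also has a near-identical neighbour, SLC2A14, with which reads can be shared. PDP1 was at 117 and 64.7 CPM in CTRL and at 73.1, 76.6 and 82.5 CPM in ODC, so the ODC libraries fell between the controls. The part of the fibroblast-marker difference in these values was not tested.

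The effect at 24 h minus the effect at 2 h, fitted jointly over all 11 libraries, gave no member with an adjusted p under 0.05 (2 of 13333 genes, 0.0150%) by edgeR's quasi-likelihood test, and DESeq2 and the likelihood ratio test also gave 0 members (beside 0.285% and 0.278% of all genes). At an unadjusted p under 0.05 there were 2 members, MPC2 and PFKFB3, both higher (beside 3.17% of all genes on the higher and 2.77% on the lower side). MPC2 differed by 0.60 ± 0.20 on the log2 scale (adjusted p = 0.626) and PFKFB3 by 0.76 ± 0.30 (adjusted p = 0.749). G6PC3 differed by 0.26 ± 0.13, ALDOC by 0.47 ± 0.25 and PDP1 by −0.53 ± 0.26. The PDP1 difference was −1.002 without CTRL library 1 at 2 h and −0.17 without CTRL library 2. The effects at the separate time points were 0.97 and 0.19 for PFKFB3, 0.75 and 0.13 for MPC2, and −0.73 and −0.23 for PDP1. Without CTRL library 1 the 2 h effects were 0.26 for PDP1, −0.03 for PFKFB3 and 0.11 for MPC2.

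Genes next to the pathway were read from a list of 56 outside the 37, covering other transporters, gluconeogenesis, the pentose phosphate pathway and pyruvate-linked enzymes, of which 33 were tested at 24 h. None had an adjusted p under 0.05 by edgeR's quasi-likelihood test. At an unadjusted p under 0.05 there were 3 higher and 3 lower, together 18.2% of the 33. Of all genes, 7.20% were higher and 5.04% lower at that threshold, together 12.2%. The smallest p belonged to ME1, a cytosolic malic enzyme that yields pyruvate and NADPH, with a log2 fold change of 0.58 ± 0.12 (adjusted p = 0.107). GPT2, the mitochondrial transaminase that links pyruvate and alanine, had −0.73 ± 0.16 (adjusted p = 0.131), and the malic enzyme ME3 had −0.48 ± 0.15. At 2 h the smallest p-values belonged to the transporters SLC2A8 (0.66 ± 0.22) and SLC2A6 (0.35 ± 0.15), none with an adjusted p under 0.05.

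Other genes known to follow hypoxia-inducible factors were set beside the members because many members are known to share that control. Of 18 tested at 24 h outside the 37, 12 had a fold change above 1 and 6 below, beside 6363 and 6326 of all 12689 genes. Their median log2 fold change was 0.11, and VEGFA, among the 6, had −0.59 ± 0.26 with overlapping libraries. Only NDRG1, a hypoxia-induced stress gene, had an adjusted p under 0.05, beside 0.189% of all genes. NDRG1 averaged 20.9 ± 2.00 CPM in CTRL and 56.5 ± 10.0 CPM in ODC (SD, n = 3) and rose by 1.44 ± 0.16 on the log2 scale, with an adjusted p of 0.0245 by edgeR's quasi-likelihood test. From a list of 15 targets of the oxidative stress factor NRF2, the ferritin chains FTL and FTH1 and the quinone reductase NQO1 rose by the same test. NQO1 averaged 199.7 ± 19.5 CPM in CTRL and 581 ± 20.5 CPM in ODC (log2 fold change 1.54 ± 0.10, adjusted p = 0.00216). The median log2 fold change of the 15 was 0.58, beside 0.064 for the members. These lists were chosen with results of these data in view, and their counts are descriptions.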

How the data were processed

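The authors sequenced stranded poly(A) libraries as single-end reads, aligned them with STAR to UCSC hg38 and counted them with HTSeq 0.9.1. The submitters' processing notes name STAR 2.7.0f and edgeR 3.26.8. The values the authors deposited are raw read counts per gene symbol, in one table per time point, without normalization. The strand setting of the counting is not given in the sources used here. From these counts, ODC was compared with CTRL at each time point with edgeR 4.0.16 in R 4.3.3 (its earlier quasi-likelihood method, TMM factors, the filterByExpr filter at 10 counts, 15 in total), with Benjamini-Hochberg adjustment over all genes tested. The difference between time points was a contrast in a joint fit of the 11 libraries. CPM values are TMM-scaled within a time point. Levels per kb used the exon length of the canonical transcript of GENCODE 44. Isozyme shares were compared with exact permutation tests (two-sided), adjusted over 14 shares at each time point. The fitting steps were tested on simulated data.

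Library totals and the floor of 3 counts set the precision, and they cover counting error only. Replicates of a group differed by a chi-square of 18.7 to 58.0 per gene, beyond counting error, so none was the same library sequenced again. This value cannot tell separate cultures from separate preparations of the same culture. The adjacent-number pairing at 24 h comes from the order of library numbers, not from the labels. Alternatives covered the low-count filter, scaling, test (DESeq2 1.42.0 among others), a joint fit, the replicate block and each library left out.

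The members, the other lists and the tests were chosen with earlier results of these data known. Full values are given for the 10 members with the smallest p at 24 h, the 6 at 2 h and the 5 for the difference, with PDP1 and G6PC3 in any case, and the others by range and count. SLC2A1, MPC1, GPI, GAPDH and, at 24 h, PDP2, as well as PDP1 at 2 h, were given per-library values or ranges after their values were seen. Outside the members, genes with an adjusted p under 0.05 and the 3 smallest p at each time point were eligible. An item among the listed genes is not reported here.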

Additional observations from a re-analysis of the deposited data

Results flagged for a closer look

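The share of PDP1 in the summed PDP1 and PDP2 level lay in opposite directions at the 2 time points in these libraries. ODC minus CTRL was −3.76 percentage points at 24 h, where ODC libraries held 82.0% to 85.0% and CTRL libraries 85.4% to 88.9%. At 2 h it was 3.25 points, with ODC libraries at 77.8% to 82.3% and CTRL libraries at 76.5% and 77.5%. No library overlapped at either time, which is what marked the result. The difference between the effects was −7.01 points. The exact permutation p was 0.02 (two-sided, labels exchanged within each time point over 200 arrangements). Its adjusted p over the 14 shares was 0.28, so it failed the correction. The separation that marked the result and this p come from the same libraries, so the p is no further evidence.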

How the results depend on the processing

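For members with an adjusted p under 0.05 at 24 h, the count of 0 became 1 with every gene of at least 1 count kept (PDP1, beside 0.522% of all genes), 3 with edgeR's likelihood ratio test (3.16%), 3 with DESeq2 (2.98%), 2 in the joint fit (PFKFB3 and MPC2, 1.40%), 5 with the replicate block on adjacent library numbers (5.41%), and 0 to 2 when 1 library was left out, 2 without ODC library 6 (PDP1 at an adjusted p of 0.0252 and MPC2 at 0.0164, beside 0.545% of all genes). The median log2 fold change of the members at 24 h was 0.0319 with library size as the only scaling and 0.0469 to 0.0951 when 1 library was left out, the highest without CTRL library 5. At 2 h, the median ran from 0.0273 to 0.105, the highest without CTRL library 1. The count of members at an unadjusted p under 0.05 became 1 with the at-least-1-count filter, the likelihood ratio test, DESeq2 and the joint fit. It also moved when 1 library was left out. That count has no share of all genes beside it in these settings, at 2 h or for the difference. It is therefore not a result about the members. For the difference between time points that count was 1 to 4, with 4 without ODC library 6 of 24 h. With 1 library left out, the log2 fold change at 2 h ran from −0.893 to 0.0195 for PDP2 and from −1.347 to 0.0825 for SLC2A3, lowest without CTRL library 2 and above 0 without CTRL library 1. In all, 16 values of single members gained an adjusted p under 0.05. The remaining 127 values of counts and medians, 361 of single members and 182 of isozyme shares kept their direction and side of the threshold or moved within the spread. The cause was not tested. With 2 or 3 libraries per group, small changes of low genes such as PDK3, PDK4 and SLC2A3 are not detectable.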

Other observations

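Scaled together over all 11 libraries, several members with a small p at 24 h had CTRL levels that differed between the time points, and these values share their control libraries with the comparisons above. PFKFB3 averaged 147 CPM in CTRL and 284 CPM in ODC at 24 h, and 247 CPM in CTRL and 282 CPM in ODC at 2 h. MPC2 averaged 48.9 and 81.0 CPM at 24 h, and 81.0 and 88.6 CPM at 2 h. PDP1 averaged 150 and 89.2 CPM at 24 h, and 89.4 and 76.5 CPM at 2 h. ALDOC averaged 6.93 and 10.8 CPM at 24 h, and 13.0 and 14.6 CPM at 2 h. For PFKFB3, MPC2 and PDP1 the CTRL cells at 24 h thus held the level that stood apart from the other groups. SLC2A1 averaged 586 and 632 CPM at 24 h against 353 and 366 CPM at 2 h, and PDK4 0.893 and 0.602 CPM against 2.79 and 3.04 CPM, so for these genes both 24 h groups stood apart from both 2 h groups. Time, the month in the library names and the table cannot be told apart in these values, and no test was run on them.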
